A study of Gallus gallus with 6 samples.

Results

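The genes described here encode subunits of the mitochondrial respiratory chain and ATP synthase, complexes I to V, and the assembly factors that share their names. They were taken as every gene whose single annotated symbol begins with NDUF, UQCR, SDHA to SDHD or ATP5, or with COX followed by a number that marks a nuclear-encoded subunit or assembly factor of complex IV. The symbol CYC1 was also allowed and matched no single-symbol probe set. The rule found 86 of the 13009 genes with a single symbol on the array. Of these, 65 were counted as subunit genes, with ATP5S of complex V among them, and 21 as genes for assembly factors. Each gene was read from 1 probe set, the one with the highest mean over the 6 arrays, out of 153 probe sets for the 86 genes. SDHB, SDHC and the subunits encoded in mitochondrial DNA were not analysed here.

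The study set cultured primordial germ cells (PGC), from which sperm and eggs descend, against cultured chicken embryonic fibroblasts (CEF), on 3 Affymetrix Chicken Genome arrays of each. PGC came from aortic blood taken at embryonic day 2.5, with 20 embryos for each replicate, and were grown with human bFGF, a fibroblast growth factor, at 10 ng/ml in knockout DMEM. CEF came from bodies of day 6.5 embryos after internal organs and limbs had been taken off, with 5 embryos for each replicate, and grew to passage 2 in DMEM with 10% fetal bovine serum (FBS). All eggs were incubated alike, both cultures were kept in the same atmosphere and temperature, and RNA was drawn from 1500000 PGC and from 6000000 CEF for each replicate. Cell type, embryonic age and medium changed together, so what each contributes to a difference cannot be told apart. The labels name neither the strain nor the sex of the embryos. What the sex make-up of the pools contributes to a difference therefore cannot be told apart either.

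Complexes I and II take electrons from NADH and succinate and pass them to coenzyme Q. Complex III passes them on to cytochrome c, and complex IV hands them to oxygen. Complexes I, III and IV pump protons across the inner mitochondrial membrane, and complex V, the ATP synthase, makes ATP as the protons flow back. Assembly factors build these machines, inserting haem, copper, iron-sulphur clusters and flavin, and are not part of the finished enzymes. Cultured embryonic cells can make ATP by both glycolysis and respiration.

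Values are log2 expression, so a difference of 1 is a 2-fold change, and every difference is PGC minus CEF. A gene was called where limma's Benjamini-Hochberg adjusted p, taken over 38439 probe sets, was under 0.05 and the difference was at least 2-fold. The arrays differed little in their medians (2.69 to 2.77), and arrays of the same cell type correlated at 0.997 among PGC and at 0.980 to 0.987 among CEF. The 9 germ cell markers were all called higher in PGC, and the 9 fibroblast markers were all called higher in CEF. Markers of other cells were read beside them. All 5 measured leukocyte markers were called higher in CEF, with a log2 summed level of 5.41 to 5.50 in PGC and 7.49 to 8.66 in CEF, and SPI1 was not above background in PGC. Of 10 measured muscle markers, 3 were called higher in CEF, with summed levels of 6.41 to 6.50 in PGC and 6.97 to 7.42 in CEF. None of 5 measured erythroid markers was called, with 5.28 to 5.39 in PGC and 5.59 to 5.73 in CEF. The part of these cells in the results was not tested, and in such bulk RNA fewer cells of a type and less RNA per cell cannot be told apart. One CEF array, replicate 1, stood apart for genes of the sex chromosomes. HINTW, a gene of the female-specific W chromosome, read 1.76, 1.60 and 1.63 in PGC and 11.67, 2.18 and 6.62 in CEF replicates 1 to 3. Results for the respiratory chain genes placed on chromosome Z are therefore also given without CEF replicate 1. CEF replicate 3, which also read HINTW above all PGC arrays, stays in, so this need not make the cell types alike in sex. For single genes of the other lists below, chromosomes are not given and differences come from all 6 arrays.

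Most respiratory chain genes differed little between the cell types. In all, 11 of 86 were called (12.8%), 7 higher in PGC and 4 higher in CEF, and 75 were not called. Over all 13009 genes the same rule called 32.5%, with 17.6% higher in PGC and 14.9% higher in CEF. The 95% confidence interval of the difference lay wholly within 2-fold for 70 of the 86 genes (81.4%), against 54.3% of all genes. The median size of the difference, without its sign, was 0.37 for the respiratory chain genes and 0.57 for all genes. Among genes above background in both cell types, 11 of 85 respiratory chain genes (12.9%) and 34.5% of 10315 genes were called. Respiratory chain genes had array medians of 8.08 to 8.43, well above the background of 1.68 in PGC and 1.97 in CEF. The array medians of 2.69 to 2.77 given above are no like measure. They cover all probe sets, with dimmer duplicates and those without a symbol. How bright these genes were beside all genes was not tested. The shares called were not compared at matched levels. Only COX7B was not above background in either cell type (PGC 0.97, CEF 0.78).

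The small differences leaned towards PGC on the deposited scale. The median difference was 0.22 for the respiratory chain genes, with the middle of them between -0.17 and 0.46, and -0.05 for all genes. With no minimum fold, 39 of the 86 genes passed the adjusted p higher in PGC and 16 higher in CEF, beside 32.1% and 29.3% of all genes. All 3 PGC arrays lay above all 3 CEF arrays for 45 genes and below them for 21, beside 35.7% and 35.5% of all genes. The cell types overlapped for 20. For genes called on these same arrays, a lack of overlap follows closely from the call and is no separate support. The lean varied with the choice of probe set and with how arrays are scaled to each other. With the mean of all probe sets of a gene the median was 0.13 for the 86 genes (51 positive), 0.04 for the subunits (36 of 65 positive) and -0.16 for complex V. By the brightest probe set the median of the 86 genes was 0.10 when arrays were centred on their 75th percentile. With arrays scaled to the bacterial spike-in controls bioB, bioC and bioD it was 1.19, and the median of all genes was then 0.93. The spike-in controls did not share 1 shift, since bioB, bioC and bioD differed by -0.97 between the cell types and the cre control by -0.13.

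**Figure D1:**
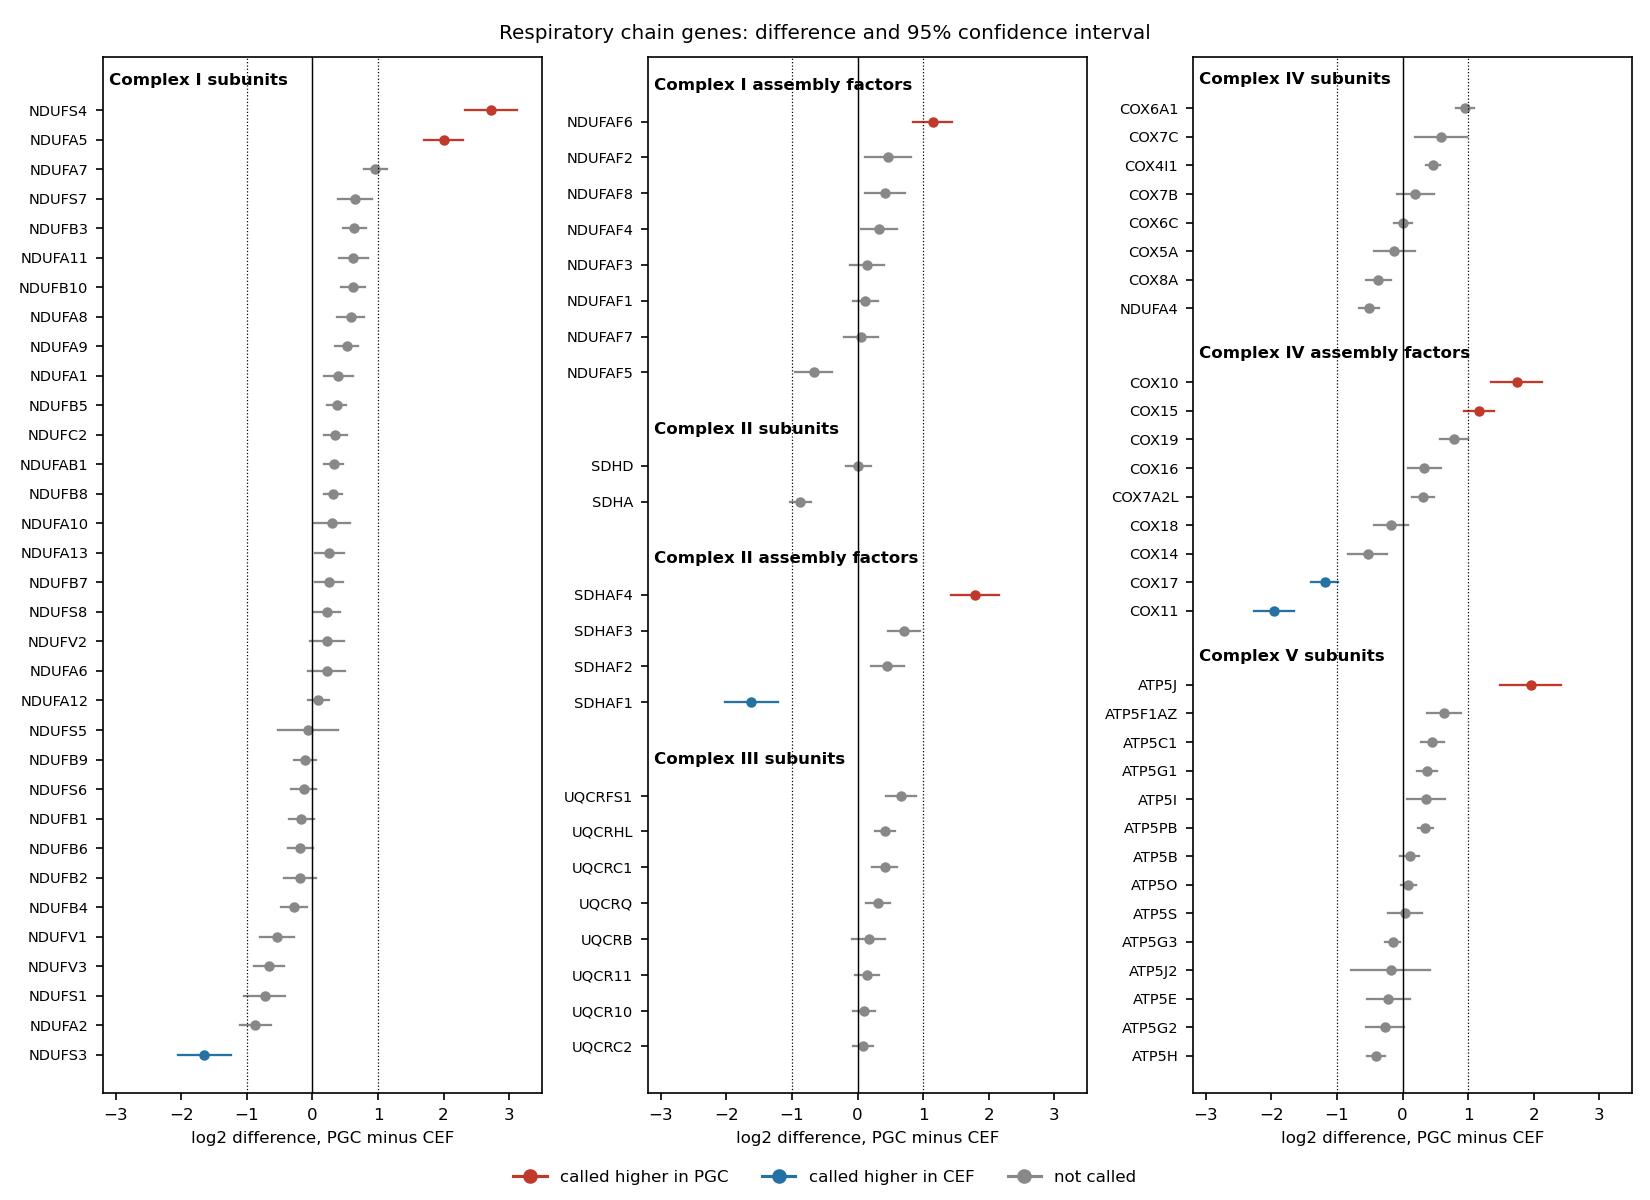
Difference in log2 expression, PGC minus CEF (x axis), for each of the 86 respiratory chain genes, ordered within each complex by the difference. Points are limma estimates, bars are 95% confidence intervals, dotted lines mark 2-fold, and the 7 red and 4 blue genes were called, while 75 grey ones were not.

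Subunits and assembly factors were also counted apart. Among the 65 subunit genes, 4 were called (6.15%), 3 higher in PGC and 1 higher in CEF, and the interval lay within 2-fold for 56. Among the 21 assembly factors, 7 were called (33.3%), 4 higher in PGC and 3 higher in CEF, and the interval lay within 2-fold for 14. The share of assembly factors called was near the 32.5% of all genes, and that of subunits was below it. The median size of the difference was 0.35 for subunits and 0.53 for assembly factors. Whether the subunits and the assembly factors differ was not tested.

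Complex I was measured through 33 subunits, of which NDUFS4 and NDUFA5 were called higher in PGC and NDUFS3 higher in CEF. That is 9.09% of them, beside 32.5% of all genes. NDUFS4, an accessory subunit that helps hold the NADH-binding module on the arm in the matrix, showed the largest difference of the 86 genes. It read 7.39, 7.40 and 7.31 in PGC and 4.26, 4.80 and 4.88 in CEF, a difference of 2.72 ± 0.17 (SE, n = 3 each; 6.59-fold; adjusted p = 2.9e-06). Each PGC array lay more than 2 log2 units above each CEF array. Only 1 of the 2 NDUFS4 probe sets lay above background, and the other gave 0.63 and was not called. NDUFS4 lies on chromosome Z, and without CEF replicate 1 the difference was 2.53. NDUFA5, an accessory subunit of the same arm, read 7.52, 7.41 and 7.48 in PGC and 5.71, 5.29 and 5.41 in CEF, a difference of 2.00 ± 0.13 (adjusted p = 3.9e-06). NDUFS3, a core subunit near the coenzyme Q site and part of the first assembly intermediates in mammals, went the other way. It read 4.07, 4.29 and 4.31 in PGC and 6.20, 5.78 and 5.63 in CEF, a difference of -1.65 ± 0.17 (3.13-fold lower in PGC; adjusted p = 6.6e-05). The cell types did not overlap for any of these 3 genes, which follows closely from the calls. Over all genes, 35.7% lay above in PGC and 35.5% above in CEF without overlap.

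The other measured core subunits of complex I, most of which carry redox centres, were not called. Those higher on average in PGC were NDUFS7 (0.65 ± 0.11), NDUFS8 (0.22 ± 0.08) and NDUFV2 (0.22 ± 0.11), the last a part of the NADH-binding module. Lower on average in PGC were NDUFV1 (-0.54 ± 0.11), which binds NADH and flavin, and NDUFS1 (-0.73 ± 0.14), which holds iron-sulphur clusters. NDUFS1 has 3 probe sets that disagreed. The brightest gave -0.73, the next gave -0.07, and the dimmest was called higher in PGC at 1.44, with means of 6.37 ± 0.02 in PGC and 4.93 ± 0.16 in CEF (SD, n = 3 each). Its direction is therefore uncertain. The accessory subunits NDUFV3 (-0.66 ± 0.10) and NDUFA2 (-0.87 ± 0.10) were lower in PGC by less than 2-fold, with all 3 PGC arrays below all 3 CEF arrays for both. NDUFA2 read 7.04, 7.08 and 7.32 in PGC and 8.04, 8.03 and 7.99 in CEF, which passed the adjusted p of 0.05 (0.00013) and missed 2-fold.

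Of the 27 accessory subunits of complex I, 18 had positive differences and 9 negative ones. With no minimum fold, 13 passed the adjusted p higher in PGC and 3 higher in CEF, beside 32.1% and 29.3% of all genes. NDUFA7 came closest to the fold threshold among those not called, with 8.62, 8.60 and 8.64 in PGC and 7.70, 7.70 and 7.58 in CEF, a difference of 0.96 ± 0.08 (adjusted p = 1.3e-05). Its second probe set gave -0.40. NDUFAB1, the mitochondrial acyl carrier protein, averaged 9.90 ± 0.04 in PGC and 9.58 ± 0.08 in CEF (SD, n = 3 each), a difference of 0.32 ± 0.06. NDUFA10 gave 0.30 ± 0.12 by its brightest probe set, while a dimmer one was called higher in PGC at 1.14.

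Complex I has 8 measured assembly factors, and 1 of them was called. NDUFAF6, needed for early complex I intermediates in human cells, read 5.97, 5.76 and 5.98 in PGC and 4.85, 4.67 and 4.74 in CEF. The difference was 1.15 ± 0.13 (2.22-fold; adjusted p = 9.7e-05), and the lack of overlap follows closely from the call. NDUFAF2 (0.46 ± 0.15), NDUFAF8 (0.42 ± 0.13) and NDUFAF4 (0.33 ± 0.12) passed the adjusted p below 2-fold in the same direction, and NDUFAF5 (-0.67 ± 0.13) in the other. NDUFAF3 (0.15), NDUFAF1 (0.12) and NDUFAF7 (0.05) did not pass it. With no minimum fold, 4 passed higher in PGC and 1 higher in CEF, beside 32.1% and 29.3% of all genes. A second probe set of NDUFAF4 was called higher in PGC. It was not above background in CEF, where it averaged 1.33, and averaged 3.42 in PGC, which is at least 2.72-fold higher.

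Complex II, succinate dehydrogenase, was measured through 2 subunits. SDHA, the flavoprotein that oxidizes succinate, read 8.13, 8.14 and 8.11 in PGC and 9.06, 8.98 and 8.97 in CEF. The difference was -0.88 ± 0.07 (1.83-fold lower in PGC; adjusted p = 1.2e-05), which passed the adjusted p without reaching 2-fold, and the cell types did not overlap. SDHD, a membrane anchor, gave 0.01 ± 0.08, with an interval of -0.17 to 0.20.

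The 4 assembly factors of complex II held 2 calls of opposite direction (50%, beside 32.5% of all genes). SDHAF4, which binds SDHA once flavin is attached, read 7.62, 7.65 and 7.41 in PGC and 6.08, 5.51 and 5.71 in CEF. The difference was 1.79 ± 0.16 (3.47-fold; adjusted p = 2.2e-05). SDHAF1, which helps put iron-sulphur clusters into SDHB, read 4.63, 4.73 and 4.96 in PGC and 6.74, 6.27 and 6.17 in CEF. That difference was -1.62 ± 0.18 (3.07-fold lower in PGC; adjusted p = 8.5e-05). The cell types did not overlap for either gene, which follows closely from the calls. SDHAF3 (0.71 ± 0.11), which like SDHAF1 serves the iron-sulphur subunit, and SDHAF2 (0.46 ± 0.11), a flavin attachment factor, passed the adjusted p higher in PGC and missed 2-fold. A second probe set of SDHAF4 was also called higher in PGC (1.20), and the third gave -0.17 with both cell types below background.

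Complex III was the most even of the complexes. None of its 8 subunits was called by limma, beside 32.5% of all genes, and the interval lay within 2-fold for 8 of 8. With no minimum fold 4 passed the adjusted p, all of them higher in PGC, beside 32.1% of all genes. The differences ran from 0.08 to 0.66, positive for 8 of 8 on the deposited scale and for 6 of 8 with arrays centred on the 75th percentile or with the mean of all probe sets. The largest was that of UQCRFS1, the Rieske iron-sulphur protein, with 9.12, 9.11 and 9.28 in PGC and 8.41, 8.42 and 8.70 in CEF (0.66 ± 0.10; adjusted p = 0.00058). UQCRHL, annotated as a hinge protein gene, followed with 10.21, 10.28 and 10.31 in PGC and 9.85, 9.75 and 9.95 in CEF (0.42 ± 0.06). The core proteins UQCRC1 and UQCRC2 gave 0.41 ± 0.08 and 0.08 ± 0.07. A second probe set of UQCRC1 was called higher in PGC (1.18), and the probe sets of UQCRC2 ran from -0.60 to 0.93 with none called.

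None of the 8 measured subunits of complex IV, cytochrome c oxidase, was called by limma, beside 32.5% of all genes. With no minimum fold 3 passed the adjusted p higher in PGC and 2 higher in CEF, beside 32.1% and 29.3% of all genes. COX6A1, the isoform of subunit 6A found outside heart and skeletal muscle in mammals, came closest to 2-fold. It read 10.97, 10.99 and 11.14 in PGC and 10.09, 10.11 and 10.05 in CEF (0.95 ± 0.06; adjusted p = 2.5e-06). That probe set is of a type that can match several transcripts, and the other COX6A1 probe set, at 2.55 ± 0.14 in PGC and 2.89 ± 0.34 in CEF (SD, n = 3 each), gave -0.34. COX4I1, the ubiquitous isoform of subunit 4, read 10.94, 11.03 and 11.05 in PGC and 10.55, 10.53 and 10.54 in CEF (0.47 ± 0.05; adjusted p = 4.4e-05). COX7C gave 0.59 ± 0.17, and 0.35 without CEF replicate 1. NDUFA4, once assigned to complex I and now to complex IV, read 10.44, 10.44 and 10.54 in PGC and 10.89, 11.11 and 10.93 in CEF (-0.51 ± 0.07; adjusted p = 0.00027). COX8A gave -0.37 ± 0.08. COX6C showed no measurable difference (0.00, interval -0.14 to 0.14), and COX5A gave -0.13 ± 0.14.

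Of 9 complex IV assembly factors, 2 were called higher in PGC and 2 higher in CEF (44.4%, beside 32.5% of all genes). The 2 enzymes that make haem A, the haem of this oxidase, were called higher in PGC. COX10, which adds a farnesyl chain to haem, read 7.04, 6.89 and 6.93 in PGC and 5.44, 4.85 and 5.35 in CEF, a difference of 1.74 ± 0.17 (3.34-fold; adjusted p = 3.8e-05). Its other probe sets were also called, at 2.28 and 2.56. All 3 COX10 probe sets are of types that can match several transcripts. COX15, which carries out the following step, read 6.94, 6.96 and 7.0 in PGC and 5.84, 5.81 and 5.74 in CEF, a difference of 1.17 ± 0.10 (2.24-fold; adjusted p = 2.1e-05). PGC lay above CEF on all arrays for both enzymes, which follows closely from the calls.

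Among copper factors, COX11 and COX17 were called higher in CEF, while COX19, CMC1 and COA6 had positive differences and SCO1 a small negative one. COX11, which brings copper to the catalytic subunit, read 3.76, 3.87 and 3.86 in PGC and 5.87, 5.64 and 5.86 in CEF, a difference of -1.96 ± 0.13 (3.89-fold lower in PGC; adjusted p = 3.9e-06). COX17, the chaperone that hands copper to other factors in the intermembrane space, read 6.93, 6.82 and 6.93 in PGC and 8.11, 8.11 and 8.02 in CEF, a difference of -1.19 ± 0.09 (2.28-fold lower in PGC; adjusted p = 8.2e-06). COX19, which works in the same copper route in yeast, went the other way below the fold threshold (0.78 ± 0.09, adjusted p = 0.00015), and its second probe set gave 0.92. Of copper-related factors from the list read below, CMC1 was called higher in PGC (1.21 ± 0.15, adjusted p = 0.00019). COA6 gave 0.82 ± 0.12, and SCO1 gave -0.12 ± 0.14 with overlap. COX16 (0.33 ± 0.11) and COX7A2L (0.31 ± 0.07), a factor of supercomplexes of the chain, were higher in PGC by less than 2-fold, while COX14 (-0.53 ± 0.13) was lower in PGC by less than 2-fold. COX18 gave -0.17 ± 0.11 and did not pass the adjusted p. With arrays scaled to bioB, bioC and bioD, which differed between the cell types by more than the cre control (-0.97 against -0.13), none of the 4 genes called higher in CEF kept its call, at -0.99 for COX11, -0.68 for NDUFS3, -0.65 for SDHAF1 and -0.22 for COX17, and SDHA stood at 0.10.

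Complex V was measured through 14 genes, and 1 of them was called (7.14%, beside 32.5% of all genes). ATP5J, coupling factor 6 of the peripheral stalk, read 4.51, 4.14 and 4.33 in PGC and 2.75, 2.36 and 2.02 in CEF, a difference of 1.95 ± 0.20 (3.87-fold; adjusted p = 6.2e-05). All PGC arrays lay above all CEF arrays, which follows closely from the call. The CEF values are close to the background of 1.97 in that cell type, and the gene has 2 dimmer probe sets. One was called higher in PGC, with 2.05 in PGC and a CEF mean of 0.99 that was not above background, which is at least 1.06-fold higher. The other gave -0.18, with both cell types below background. Averaging the 3 probe sets ended the call of ATP5J, and averaging those of SDHAF4 ended its call too.

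The catalytic subunits of complex V differed by less than 2-fold. ATP5B, the beta subunit where ATP is made, read 10.35, 10.47 and 10.52 in PGC and 10.42, 10.27 and 10.32 in CEF (0.11 ± 0.06; adjusted p = 0.19), with overlap. ATP5F1AZ, the Z-linked alpha subunit, read 10.80, 10.89 and 10.89 in PGC and 9.94, 10.37 and 10.37 in CEF (0.63 ± 0.11; adjusted p = 0.0015), and 0.49 without CEF replicate 1. A W-linked copy of this gene was not analysed here, and how far the probe set also reads it cannot be told. ATP5C1, the gamma subunit, gave 0.45 ± 0.08, while its dimmer probe set, at 2.18 ± 0.07 in PGC and 3.35 ± 0.31 in CEF (SD, n = 3 each), was called higher in CEF (-1.16).

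The 3 genes for the c subunit of the membrane ring, which encode the same mature protein in mammals, did not share a direction. ATP5G1 read 9.14, 9.24 and 9.25 in PGC and 8.80, 8.87 and 8.85 in CEF (0.37 ± 0.07; adjusted p = 0.0018), and its dim probe set gave -0.70. ATP5G3 read 10.76, 10.82 and 10.82 in PGC and 11.01, 10.98 and 10.87 in CEF (-0.15 ± 0.05; adjusted p = 0.036), and ATP5G2 was dim, at 2.49 in PGC and 2.76 in CEF (-0.27 ± 0.13; adjusted p = 0.11). ATP5H, a peripheral stalk subunit, was lower in PGC by less than 2-fold (-0.40 ± 0.06), and ATP5PB, of the same stalk, was higher by less than 2-fold (0.35 ± 0.05). ATP5I gave 0.36 ± 0.13, and 0.20 without CEF replicate 1.

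**Figure D2:**
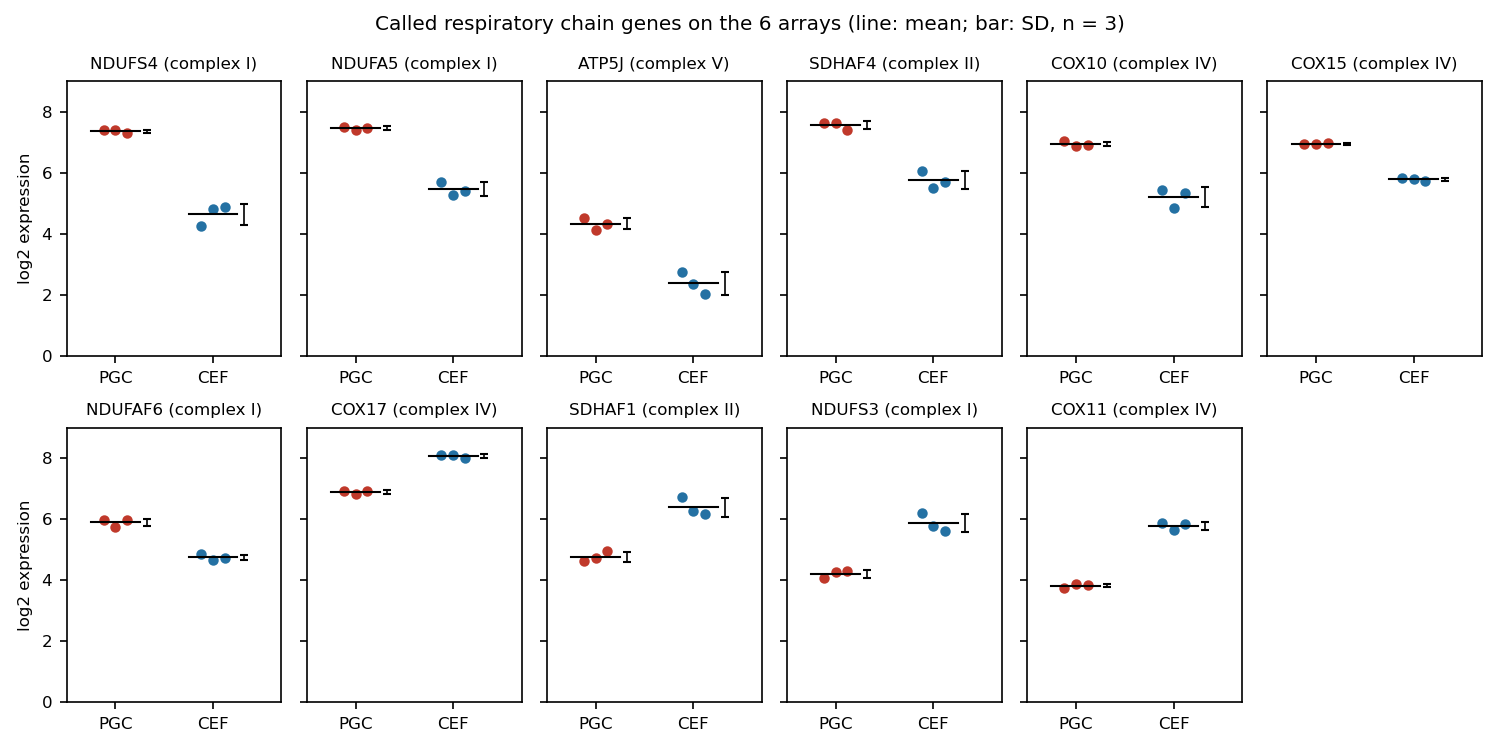
Log2 expression (y axis) of the 11 called respiratory chain genes in 3 PGC (red, left) and 3 CEF (blue, right) arrays. Points are arrays, lines are means and side bars are SD, and 7 genes are higher in PGC and 4 in CEF. PGC and CEF arrays do not overlap in any of the 11 panels. The genes were chosen by their calls on these same arrays, so this is no separate support. Of all genes, 35.7% lie above in PGC and 35.5% in CEF without overlap.

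**Figure D3:**
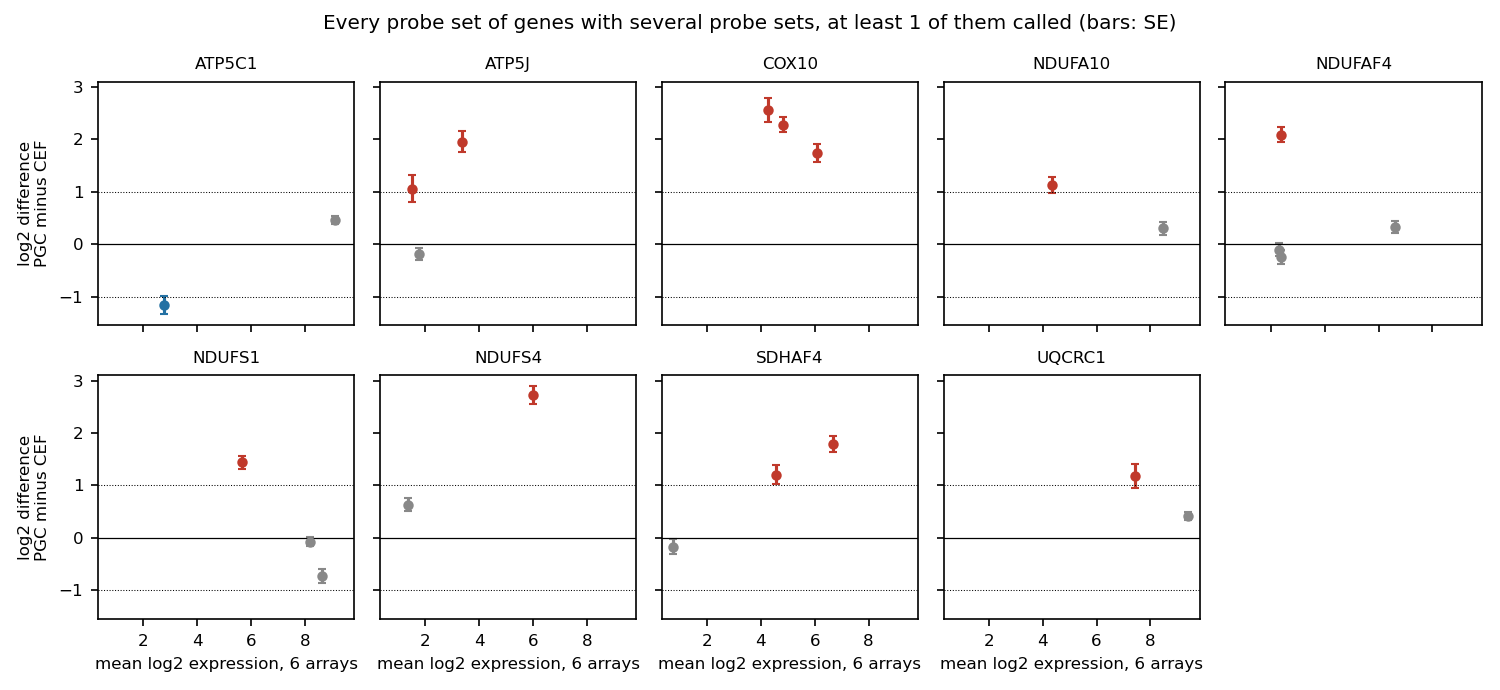
Difference in log2 expression, PGC minus CEF (y axis), against the mean over 6 arrays (x axis), for every probe set of the 9 genes with several probe sets of which at least 1 was called. Bars are SE and colours are as in the other plots; the COX10 probe sets lie together (1.74 to 2.56), while those of NDUFS1 spread from -0.73 to 1.44.

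The choice of probe set mattered for single genes. Of the 86 genes, 46 have 1 probe set and 40 have several. No gene had probe sets called in opposite directions. For 4 genes that were not called (NDUFA10, NDUFAF4, NDUFS1 and UQCRC1) a dimmer probe set was called higher in PGC, and for 1 (ATP5C1) a dimmer probe set was called higher in CEF. The plot of every probe set shows that most of these disagreements lie between a bright and a dim probe set. The part of cross-hybridisation or of alternative transcript ends in them was not tested. Measures of RNA integrity also differed between arrays. The 3′ minus 5′ difference of the actin control was 0.57 to 0.69 in PGC and -0.01 to 0.89 in CEF, and that of the GAPDH control was -0.21 to -0.17 in PGC and -0.26 to 0.26 in CEF.

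Of the 85 respiratory chain genes that could be placed through the gene records of assembly GRCg7b, 5 lie on chromosome Z: ATP5F1AZ, ATP5I, COX7C, NDUFAF2 and NDUFS4. All 5 had their lowest CEF value in replicate 1, against 12 of the 80 genes on other chromosomes (15.0%). In CEF replicate 1 their median deviation from the CEF mean was -0.33, and it was 0.17 and 0.14 in replicates 2 and 3. No PGC array stood apart, with median deviations of -0.03, 0.03 and 0.03. The array as a whole showed the same feature, since 65.2% of 463 Z genes above background and 23.9% of 9728 genes on other chromosomes were lowest in CEF replicate 1. The median difference of those Z genes was 0.34, and that of the other genes was -0.01. Without CEF replicate 1 the 5 genes differed by 0.49, 0.20, 0.35, 0.31 and 2.53 in the order named, with NDUFS4 alone past 2-fold. All had an adjusted p under 0.05, but leaving out the array that deviated also narrows the CEF spread. With another array left out, the limma adjusted p reached 0.124 for ATP5I, 0.068 for COX7C and 0.115 for NDUFAF2. It stayed under 0.05 for ATP5F1AZ (at most 0.0091) and NDUFS4 (at most 7.8e-05).

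**Figure D4:**
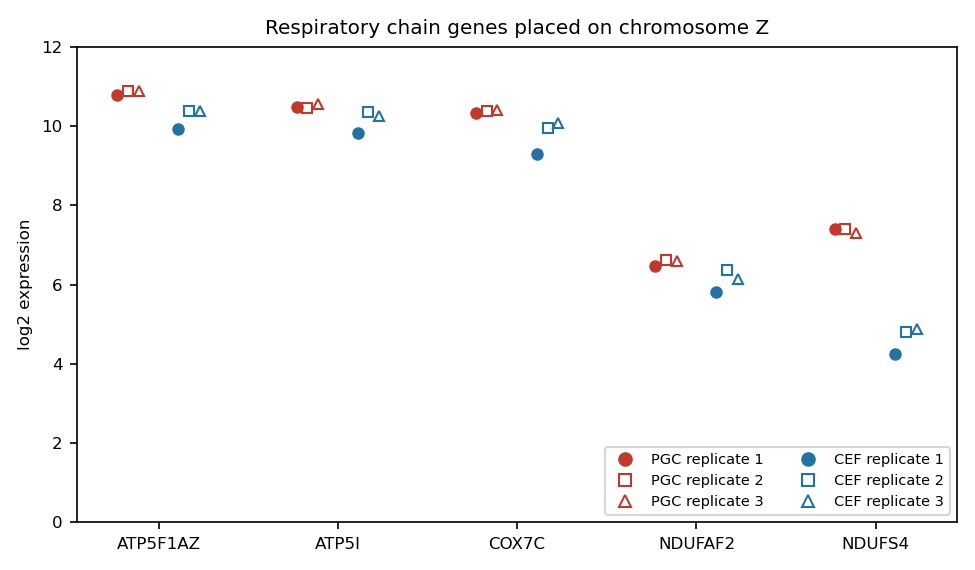
Log2 expression (y axis) of the 5 respiratory chain genes placed on chromosome Z, in 3 PGC (red, left) and 3 CEF (blue, right) arrays, with 1 symbol for each replicate. CEF replicate 1 (filled blue circle) is the lowest of the 3 CEF arrays for 5 of 5 genes.

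Genes that serve the respiratory chain under other names were read from lists of assembly factors, carriers, cofactor synthesis and regulation. Not every entry of these lists serves the chain directly. The same rule called 32.5% of all genes, 17.6% higher in PGC and 14.9% higher in CEF, and each list is set beside that share. Of 34 genes on a list of further assembly factors and related genes, 11 were called higher in PGC and 0 in CEF by limma. With no fold required 2 passed the adjusted p in CEF, and the median difference was 0.68. The share called in either direction (32.4%) was near that of all genes (32.5%). Every call was higher in PGC, where the rule called 17.6% of all genes. LRPPRC, which stabilizes mitochondrial messenger RNAs, read 6.84, 6.75 and 6.63 in PGC and 2.18, 3.16 and 4.05 in CEF (3.61 ± 0.39; adjusted p = 8.2e-05). TMEM70, an ATP synthase assembly factor, read 9.03, 9.01 and 9.01 in PGC and 6.46, 6.03 and 6.22 in CEF (2.78 ± 0.12; adjusted p = 3.0e-07). Both were higher on all PGC arrays, which follows closely from the calls. Counts without 1 array ran from 8 to 12, and 7 were called with arrays centred on the 75th percentile.

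Iron-sulphur cluster assembly genes showed 4 of 13 called higher in PGC and 0 higher in CEF, with 1 passing the adjusted p in CEF when no fold was required, and a median of 0.58. The share called in either direction was 30.8%, near the 32.5% of all genes. Every call was higher in PGC, where the rule called 17.6% of all genes. The largest were ISCA1, a late-acting carrier protein, at 2.55 ± 0.12 (adjusted p = 5.6e-07), and ISCU, the scaffold on which clusters form, at 2.08 ± 0.12 (adjusted p = 2.0e-06). In coenzyme Q and haem synthesis, 2 of 17 genes were called higher in PGC and 1 higher in CEF (17.6%, below the 32.5% of all genes). FECH, which inserts iron into the haem ring, gave 1.93 ± 0.14 (adjusted p = 6.0e-06), and UROD, an earlier enzyme of the route, gave 1.61 ± 0.10 (adjusted p = 2.3e-06). ALAS1, which performs the first step of haem synthesis, read 5.04, 5.00 and 5.07 in PGC and 7.68, 7.61 and 7.99 in CEF (-2.72 ± 0.13; adjusted p = 5.2e-07).

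Of 10 genes on a broad list of electron carriers and other entry points, 4 were called higher in PGC and 0 higher in CEF. With no fold required, 1 passed the adjusted p in CEF. That is 40.0% of the list, beside 32.5% of all genes in either direction and 17.6% higher in PGC. Differences were positive for 5 members and negative for 5. Among the negative ones were AOX1 (-0.09) and UCP3 (-0.04), which read close to or below background in both cell types. Neither is an electron carrier or entry point of the chain, and both count among the 10 genes. SQRDL, which oxidizes sulphide and feeds coenzyme Q, gave 2.68 ± 0.24 (adjusted p = 2.4e-05), and CHDH, which oxidizes choline, gave 2.68 ± 0.29 (adjusted p = 7.4e-05). In mitochondrial DNA maintenance and transcription, 4 of 16 genes were called higher in PGC and 2 higher in CEF (37.5%, beside 32.5% of all genes). MGME1, an exonuclease acting on mitochondrial DNA, gave 3.16 ± 0.11 (adjusted p = 8.8e-08) and TFB1M, a ribosomal RNA methyltransferase, gave 1.62 ± 0.13 (adjusted p = 1.3e-05). TOP1MT, the mitochondrial topoisomerase, gave -2.04 ± 0.14 (adjusted p = 5.7e-06) and TFB2M, a transcription initiation factor, gave -1.48 ± 0.14 (adjusted p = 2.9e-05).

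Of 16 nuclear regulators of mitochondrial genes, 4 were called higher in PGC and 3 higher in CEF (43.8%, beside 32.5% of all genes), with a median of -0.10. The mean of all probe sets of a gene gave a median of 0.13 for this list, with 3 called higher in PGC and 2 higher in CEF. PRKAA1, a catalytic subunit of AMP-activated kinase, gave 1.84 ± 0.21 (adjusted p = 9.8e-05). PPARGC1A, a coactivator of mitochondrial biogenesis, read 5.45, 5.57 and 5.52 in PGC and 4.30, 2.84 and 4.57 in CEF (1.61 ± 0.39; adjusted p = 0.0084), with wide spread among CEF. MYC, a growth regulator, read 1.76, 1.75 and 2.08 in PGC, close to the PGC background of 1.68, and 7.68, 7.32 and 8.18 in CEF (-5.87 ± 0.22; adjusted p = 1.6e-07). EPAS1, a hypoxia-inducible factor, gave -1.64 ± 0.23 (adjusted p = 0.0004).

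In the tricarboxylic acid cycle, which supplies NADH and succinate, 1 of 11 genes was called in each direction (18.2%, below the 32.5% of all genes). SUCLG2, a subunit of succinyl-CoA synthetase, gave 1.45 ± 0.10 (adjusted p = 4.6e-06), and IDH2, the NADP-dependent isocitrate dehydrogenase, gave -1.16 ± 0.13 (adjusted p = 0.0001). With the mean of all probe sets of a gene, neither was called. Among 12 genes of cristae and inner membrane organisation, CRLS1, the cardiolipin synthase, was called higher in PGC (1.58 ± 0.09; adjusted p = 2.0e-06) and 0 were called higher in CEF, with 1 passing the adjusted p there when no fold was required. That is 8.33% of the list, below the 32.5% of all genes. The nuclear genes for mitochondrial ribosomal proteins, which make the subunits encoded in mitochondrial DNA, had 10 of 67 called higher in PGC and 1 higher in CEF (16.4%, below the 32.5% of all genes), with a median of 0.41. Without any single array these counts ran from 10 to 13 and from 0 to 2.

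**Figure D5:**
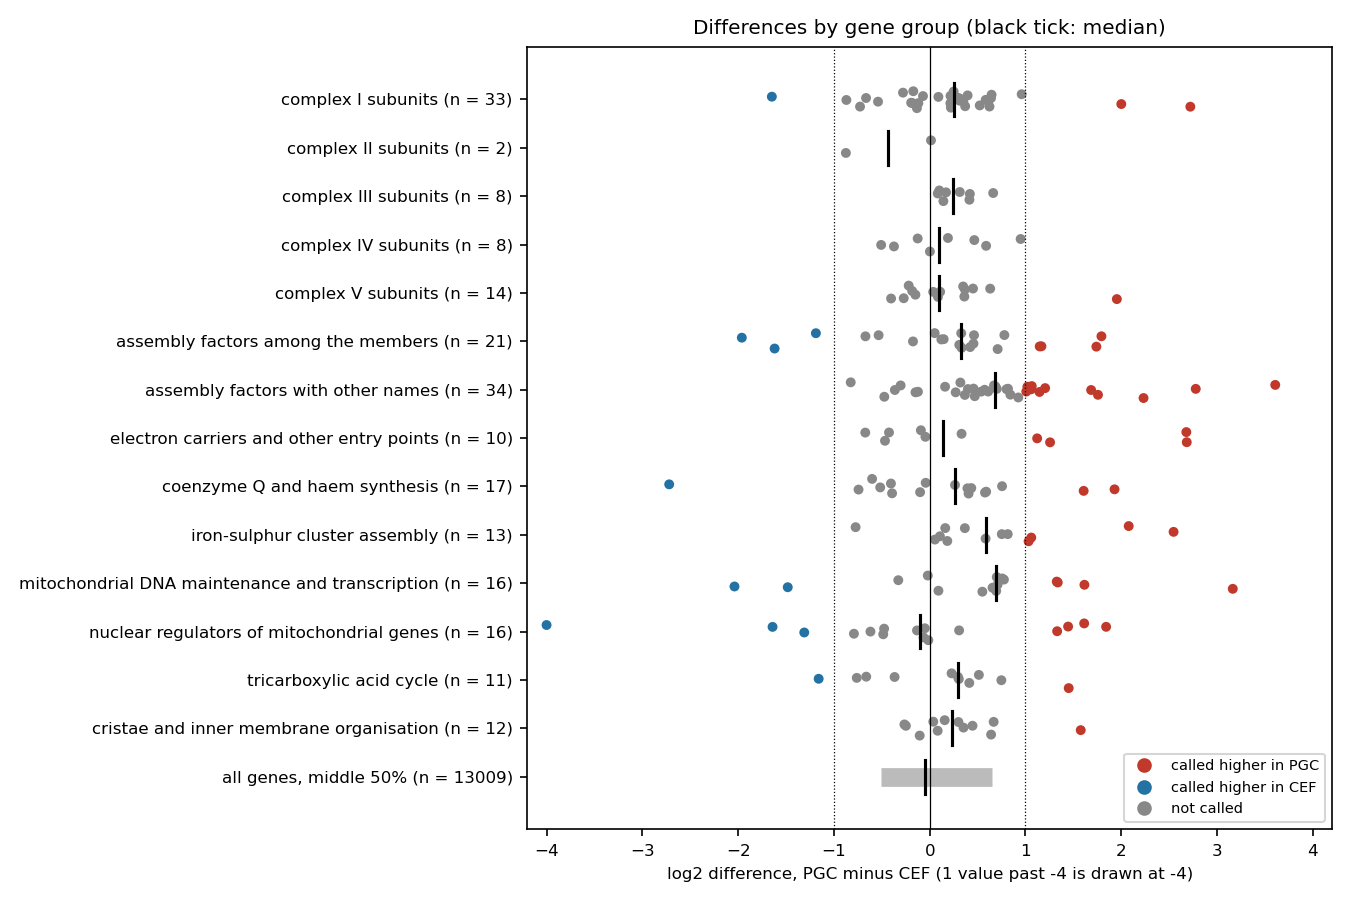
Difference in log2 expression, PGC minus CEF (x axis), of single genes (points) in each group of genes (rows), with a black tick at the median and a grey bar in the last row for the middle 50% of all 13009 genes (MYC, past the axis, is drawn at -4). Subunit genes crowd within the dotted 2-fold lines, with 3 called higher in PGC and 1 in CEF. The list of further assembly factors and related genes has a median of 0.68. Of its 34 genes, 11 were called higher in PGC (32.4%) and 0 in CEF, beside 17.6% and 14.9% of all genes.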

How the data were processed

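Expression was measured on 6 one-colour arrays, 3 of cultured PGC and 3 of cultured CEF, grouped by title, where replicates are termed biological. The deposited values were read as log2 expression. They were taken to be already normalized between arrays, which was not stated. The log2 scale was read from the values, and MAS5 and GCOS are named in the submitters' processing notes. What role and version each had was not stated.

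No further scaling was done. limma 3.58.1 in R 4.3.3 was fitted with cell type as the only term and an intensity trend over 38439 probe sets, after 96 control probe sets were left out. Genes were named from the platform annotation, in which 27178 probe sets have 1 symbol, 177 have several and 11180 have none. A probe set shared by COX7A2 and another gene was not used. Background was the 95th percentile of 687 probe sets with no symbol whose names do not mark them as chicken, 1.68 in PGC and 1.97 in CEF. Only 3 arrays of each cell type limit the precision, and p-values measure the spread between these replicates.

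Members and lists were chosen with earlier results of these data known. Described with values were called members, the 2 largest differences in each direction and the highest mean of each complex, isoform pairs, core subunits, assembly factors, and the 2 largest called differences in each direction of each other list. Others are shown because their probe sets disagree, because they lie on chromosome Z, or as further examples, chosen after their values were seen. The script was tested on simulated data. No promoter or protein sequence was used.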

Additional observations from a re-analysis of the deposited data

How the results depend on the processing

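Other settings were no minimum fold, the mean of all probe sets, spike-in, 75th percentile and quantile scaling, dim probe sets left out, no trend, robust fitting, array weights, a test against 2-fold, the replicate number as a block, each array left out and, added after seeing the data, no s_at or x_at probe sets. The counts stayed at 7 higher in PGC and 4 higher in CEF without any single array (median 0.17 to 0.27), and the same 11 genes were kept. The replicate block likewise gave 7 and 4. Same-numbered arrays did not visibly deviate together (correlations -0.036, -0.014 and 0.009, beside -0.079 to 0.084 for other pairs). These values cannot tell whether the cultures were prepared in pairs. With no minimum fold the counts were 39 and 16. Scaling to bioB, bioC and bioD gave 57 and 0 with a median of 1.19, and raised every gene by 0.97, so 86.5% of all calls were higher in PGC against 54.3% on the deposited scale. Under it COX11 (-0.99), NDUFS3 (-0.68), SDHAF1 (-0.65) and COX17 (-0.22) were no longer called, and ATP5G2 (0.70), ATP5G3 (0.82), ATP5H (0.57), COX14 (0.44), COX18 (0.80), COX8A (0.60), NDUFA2 (0.10), NDUFA4 (0.47), NDUFAF5 (0.30), NDUFS1 (0.25), NDUFV1 (0.43) and SDHA (0.10) turned positive. Centring on the 75th percentile shifted genes by -0.12, with a median of 0.096 and 48.7% of all calls higher in PGC, and turned ATP5B (-0.014), NDUFAF1 (-0.0016), NDUFAF7 (-0.071) and UQCRC2 (-0.039). Quantile normalization turned NDUFAF7 (-0.056). Under 75th percentile centring 7 genes on the list of further assembly factors and related genes and 2 iron-sulphur genes were called higher in PGC, against 11 and 4. The mean of all probe sets gave 5 and 4 with a median of 0.13 and turned ATP5G1 (-0.17), NDUFS1 (0.21) and NDUFV2 (-0.11). It also ended both calls in the tricarboxylic acid cycle. Testing against 2-fold gave 5 and 3, without COX15, COX17 and NDUFAF6. Without s_at and x_at probe sets 78 genes were left, with 6 and 4 called, no COX10 probe set, and COX6A1 at -0.34. Of 794 gene and setting pairs over 47 described genes, 740 kept direction and call, 24 gained a call, 9 lost one and 21 turned. The setting with no minimum fold is left out of these pairs. That total is no measure of robustness. Omitting dim probe sets or the trend, robust fitting, array weights, the 2-fold test and the block leave each difference unchanged, so no direction could turn there. Spike-in scaling kept 7 of the 47 genes. Apart from the effect that scaling and probe sets have by construction, the cause of the changes was not tested. Dim probe sets such as those of ATP5G2, ATP5J and COX14 limit what can be said of those genes.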

Other observations

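Some subunits were read only from dim probe sets. ATP5E, the epsilon subunit of ATP synthase, averaged 2.57 ± 0.08 in PGC and 2.78 ± 0.17 in CEF (SD, n = 3 each), a difference of -0.22 ± 0.14 (SE). NDUFS5, a complex I accessory subunit, averaged 2.84 ± 0.11 in PGC and 2.91 ± 0.38 in CEF, a difference of -0.07 ± 0.20. ATP5J2, a membrane subunit of ATP synthase, read 3.79, 3.92 and 3.74 in PGC and 4.66, 3.72 and 3.62 in CEF, where replicate 1 stood above the others.

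Replicates spread less in PGC than in CEF. The median SD of the respiratory chain genes was 0.067 in PGC and 0.104 in CEF, and that of all genes was 0.085 in PGC and 0.197 in CEF. ATP5PB, a peripheral stalk subunit, had an SD of 0.010 in PGC and 0.008 in CEF. Its difference of 0.35 passed the adjusted p (0.00039) below 2-fold.

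The actin control of CEF ran from -0.01 to 0.89 in its 3′ minus 5′ difference, with replicate 1 at 0.89, the array on which HINTW read 11.67. LRPPRC, with a CEF SD of 0.93, was also lowest in that replicate (2.18). Whether these move together was not tested.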
